A study of Mus musculus with 2 samples.

Results

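The genes described here are the Mrpl and Mrps genes, which encode proteins of the mitochondrial ribosome. They were taken by symbol, as every gene whose name begins with Mrpl or Mrps followed by a number and which had 20 or more unique molecular identifiers (UMIs, each of which marks 1 captured mRNA molecule) over both libraries. All 78 symbols of this form passed, out of 22587 gene symbols in the files, and they comprised 49 Mrpl and 29 Mrps genes. Their totals over all barcodes ran from 77 UMIs for Mrpl53 to 12138 for Mrps33, so that no member lay near the threshold and none was left out by it.

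YFP+ cells of the adult hippocampus had been sorted from Nestin-CreERT2;ROSA26YFP mice, in which tamoxifen (TAM) switches on both recombination and a YFP label. The 2 groups were CT mice without the Opa1-Flox allele (the library labelled WT) and Opa1 cKO mice with it. In both, TAM was given at 8 weeks of age and cells were collected at 12 weeks. The deposited strain label of both libraries, CT included, names Opa1-Flox, so the group comes from the title and the absence of the allele in CT from the study's methods. Because the Nestin promoter drives the recombinase, deletion is limited to nestin-expressing cells and their progeny. Cells of 3 animals per genotype were pooled and sequenced as 1 library by the 3′ method of 10x Genomics, which leaves 1 library per genotype. No test between genotypes was therefore possible, and every interval below is a 95% interval that covers counting error only, not the spread between animals.

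Mitochondria carry their own ribosomes, which translate the small set of mRNAs transcribed from the mitochondrial genome (the 13 mt- genes) into core subunits of the respiratory chain. All protein parts of these ribosomes are encoded in the nucleus, made in the cytosol and imported, and they assemble with mitochondrially encoded rRNA into a large subunit, which forms the peptide bond, and a small subunit, which decodes the mRNA. Some of the proteins have counterparts in bacterial ribosomes and others are found in mitochondria alone. OPA1 is a GTPase of the inner membrane that fuses mitochondria and keeps their cristae in shape. Adult neural stem cells (NSCs) of the dentate gyrus are mostly quiescent, and a change in mitochondrial activity accompanies their activation and differentiation.

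The symbols do not follow the structure in every case. Mrps30 and Mrps18a carry small-subunit names, but their proteins sit in the large subunit, and Mrps36 is now regarded as a component of the 2-oxoglutarate dehydrogenase complex. Sums below follow the symbols, while the lists by role place Mrps30 and Mrps18a with the mitochondria-specific large-subunit proteins and leave Mrps36 out.

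To show the sequences in front of these genes, the promoter windows held by RefSeq (GRCm38.p6, 250 bases before to 50 bases after the start of the gene) were read for the members, and 69 of 78 had an entry, with 75 windows in all. Each window was searched on both strands for the letters TGATGNAA (core of the C/EBP-ATF response element bound by ATF4), GCGCATGCG (NRF1), CCGGAAGT (ETS family), AAGATGGCG (YY1) and TGACGTCA (cAMP response element). NRF1 is a nuclear regulator of many genes for mitochondrial proteins, ETS factors and YY1 bind the promoters of many housekeeping genes, and ATF4 is the transcription factor of the integrated stress response. The NRF1 letters were found for 7 of 69 members (10.1%, against 1.95% of all 27025 genes), in 6 large-subunit and 1 small-subunit gene. Those 27025 are all genes with a promoter entry, whether or not they had UMIs in these cells, so expression was not matched. The ETS letters were found for 12 (17.4% against 4.31%), the YY1 letters for 8 (11.6% against 1.64%) and the cAMP response element for 2 (2.90% against 2.03%). The ATF4 core was found for 0 of 69 members and for 4.51% of all genes, which says only that these letters are not in these windows. The windows shown next are those of the 5 members with an entry that had the highest ratios of Opa1 cKO over CT in NSC pool-like cells (Mrps30, Mrps18b, Mrpl9, Mrps22 and Mrpl32) and of 2 members whose ratios were below 0 (Mrpl17 and Mrpl41). Capitals mark the matched letters, and the sequences run 5′ to 3′ on the strand of the gene.
Mrps30 (chr13:118387203-118387502, minus strand, no match): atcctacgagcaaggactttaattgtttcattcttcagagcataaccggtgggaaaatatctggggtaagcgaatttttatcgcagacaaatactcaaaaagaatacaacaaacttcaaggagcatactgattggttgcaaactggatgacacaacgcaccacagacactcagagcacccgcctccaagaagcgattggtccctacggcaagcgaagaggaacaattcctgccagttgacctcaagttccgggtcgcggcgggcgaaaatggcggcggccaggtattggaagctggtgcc
Mrps18b (chr17:35916391-35916690, minus strand, NRF1 letters): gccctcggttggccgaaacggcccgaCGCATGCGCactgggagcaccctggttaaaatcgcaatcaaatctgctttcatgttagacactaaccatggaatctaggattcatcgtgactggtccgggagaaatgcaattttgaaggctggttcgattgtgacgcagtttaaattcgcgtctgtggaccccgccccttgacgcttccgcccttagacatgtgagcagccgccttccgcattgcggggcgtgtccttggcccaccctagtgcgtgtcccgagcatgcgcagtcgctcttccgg
Mrpl9 (chr3:94443086-94443385, plus strand, NRF1 letters on both strands, overlapping): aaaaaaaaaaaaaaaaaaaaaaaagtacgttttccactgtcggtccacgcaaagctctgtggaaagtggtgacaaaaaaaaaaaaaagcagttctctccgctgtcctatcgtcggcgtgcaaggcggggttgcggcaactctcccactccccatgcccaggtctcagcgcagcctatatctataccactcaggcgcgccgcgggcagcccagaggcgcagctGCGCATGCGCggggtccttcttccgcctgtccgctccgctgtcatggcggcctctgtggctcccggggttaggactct
Mrpl32 (chr13:14612988-14613287, minus strand, NRF1 letters at 2 places, at 1 of them on both strands): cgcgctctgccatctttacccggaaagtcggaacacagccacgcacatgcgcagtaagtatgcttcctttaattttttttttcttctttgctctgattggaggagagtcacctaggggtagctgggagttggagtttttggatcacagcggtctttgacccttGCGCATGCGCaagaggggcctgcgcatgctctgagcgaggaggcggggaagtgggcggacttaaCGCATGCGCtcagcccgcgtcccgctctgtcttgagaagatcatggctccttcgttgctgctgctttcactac
Mrps22 (chr9:98601630-98601929, minus strand, ETS letters): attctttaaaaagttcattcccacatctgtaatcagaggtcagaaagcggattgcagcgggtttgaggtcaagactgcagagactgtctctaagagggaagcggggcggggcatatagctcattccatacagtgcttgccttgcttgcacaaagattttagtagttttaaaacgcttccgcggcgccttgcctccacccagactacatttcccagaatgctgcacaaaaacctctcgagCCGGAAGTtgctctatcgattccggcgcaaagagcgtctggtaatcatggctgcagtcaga
Mrpl17 (chr7:105811038-105811337, minus strand, NRF1 letters): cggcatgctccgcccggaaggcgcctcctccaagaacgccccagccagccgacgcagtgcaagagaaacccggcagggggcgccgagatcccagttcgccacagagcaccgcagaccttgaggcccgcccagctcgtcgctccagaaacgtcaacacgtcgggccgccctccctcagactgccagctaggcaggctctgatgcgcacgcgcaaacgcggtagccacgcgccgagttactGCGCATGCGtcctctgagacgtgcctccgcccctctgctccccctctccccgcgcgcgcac
Mrpl41 (chr2:24975049-24975348, minus strand, no match): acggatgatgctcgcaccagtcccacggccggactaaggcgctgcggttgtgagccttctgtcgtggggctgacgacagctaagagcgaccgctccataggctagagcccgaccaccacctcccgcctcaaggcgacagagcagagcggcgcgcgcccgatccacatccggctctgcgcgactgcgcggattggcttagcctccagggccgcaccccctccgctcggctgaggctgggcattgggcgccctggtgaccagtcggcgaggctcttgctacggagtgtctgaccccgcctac
The NRF1 and cAMP response letters read nearly or fully alike on both strands, so 1 place can match on both, as before Mrpl9. The NRF1 letters stood before Mrps18b, Mrpl9, Mrpl32 and Mrpl39, with log2 ratios of 0.88, 0.77, 0.72 and 0.66. They also stood before Mrpl10 (0.38), Mrpl22 (0.08) and Mrpl17 (-0.02). Mrps30, which had the highest ratio, held none of the letters searched. The median log2 ratio of Opa1 cKO over CT in NSC pool-like cells was 0.66 for the 7 members with the NRF1 letters (range -0.02 to 0.88). For the 62 without them it was 0.39 (range -0.12 to 1.15). The median was 0.38 with and 0.39 without the ETS letters, and 0.47 with and 0.39 without the YY1 letters. For the cAMP response element it was 0.26 with (2 members) and 0.39 without. Whether the letters bear on the ratios was not tested.

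In total, 4634 barcodes with 10799936 UMIs were deposited for CT and 6475 barcodes with 18662032 UMIs for Opa1 cKO, and 36 barcodes were present in both. The filters on genes and mitochondrial share left 4186 CT and 6121 Opa1 cKO barcodes, and the demand for a YFP UMI reduced these to 1790 and 3764 cells, which were clustered and named by marker genes. The NSC pool-like class, named from a list of 14 markers such as Aldoc, Apoe and Slc1a3, held 1378 CT cells and 2582 of Opa1 cKO, which came from 2 clusters. The first held 1374 CT and 792 Opa1 cKO cells, and the second, led by stress genes such as Nupr1, Gdf15 and Chac1, held 4 CT and 1790 Opa1 cKO cells. Leading genes of the first included Apoc1, Etnppl and Tlr3, and 6 of the 14 markers had a log2 fold over 1 there. In the second, 13 did, by the second reading described under the processing. No separate list for astrocytes was used, so how many cells of this class are astrocytes rather than stem cells was not determined. Median depth in this class was 2494 UMIs per CT cell, against 2959 for Opa1 cKO. Opa1 itself stood at 18.5 CPM in CT (70 UMIs, 14.4 to 23.4) and at 8.13 CPM in Opa1 cKO (69 UMIs, 6.33 to 10.3), a log2 ratio of -1.19 (-1.69 to -0.69), where CPM is UMIs per 1000000 UMIs of the class. A CPM value is a share of the mRNA captured, not an amount per cell.

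In NSC pool-like cells, mRNA of both ribosomal subunits took a larger share in Opa1 cKO than in CT. The Mrpl genes together had 4233 CPM in CT (4168 to 4299), against 5408 in Opa1 cKO (5359 to 5458), for a log2 ratio of 0.35 (0.33 to 0.38) or 1.28-fold. The Mrps genes together had 2812 CPM (2759 to 2866) and 3709 CPM (3668 to 3750), a log2 ratio of 0.40 (0.37 to 0.43) or 1.32-fold. The difference was spread over nearly all members rather than carried by a few. Of 77 members with at least 50 UMIs in these cells, 74 had a ratio above 0, compared with 53.4% of all 10099 genes with that many UMIs, and their median log2 ratio was 0.40 against 0.04 over all genes. A ratio of 1.5-fold or more higher in Opa1 cKO was found for 18 members, compared with 13% of all genes, and 1.5-fold or more lower for 0, compared with 11.4%. Such counts are counts of sizes, not of significant changes, and the 18 became 10 per 1000000 UMIs other than mt- mRNAs (10.8% of all genes) and also 10 relative to the median of all genes (11.3%). Under these 2 settings the share of members past 1.5-fold higher, 13%, was thus near that of all genes, and 0 were past it lower (13.9% and 13.3% of all genes). Most members also had at least 300 UMIs in these cells. At that minimum, 72 of 75 members were above 0, compared with 3405 of all 5486 genes. Their median log2 ratio was 0.39, against 0.14 over those genes. Past 1.5-fold higher were 16 members and 759 of all these genes, and past it lower 0 and 373. The member under 50 UMIs was Mrpl53, with 8 UMIs from CT cells and 24 from Opa1 cKO.

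The same 2 libraries differed in this direction also in a class where the mt- mRNAs hardly differed. In oligodendrocyte-like cells, the 13 mt- mRNAs together stood at a log2 ratio of -0.05 (-0.08 to -0.02), whereas the Mrpl sum stood at 0.32 (0.20 to 0.43) and the Mrps sum at 0.32 (0.18 to 0.46). A difference between the 2 libraries as a whole and an effect of the genotype cannot be told apart with 1 library each.

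**Figure D1:**
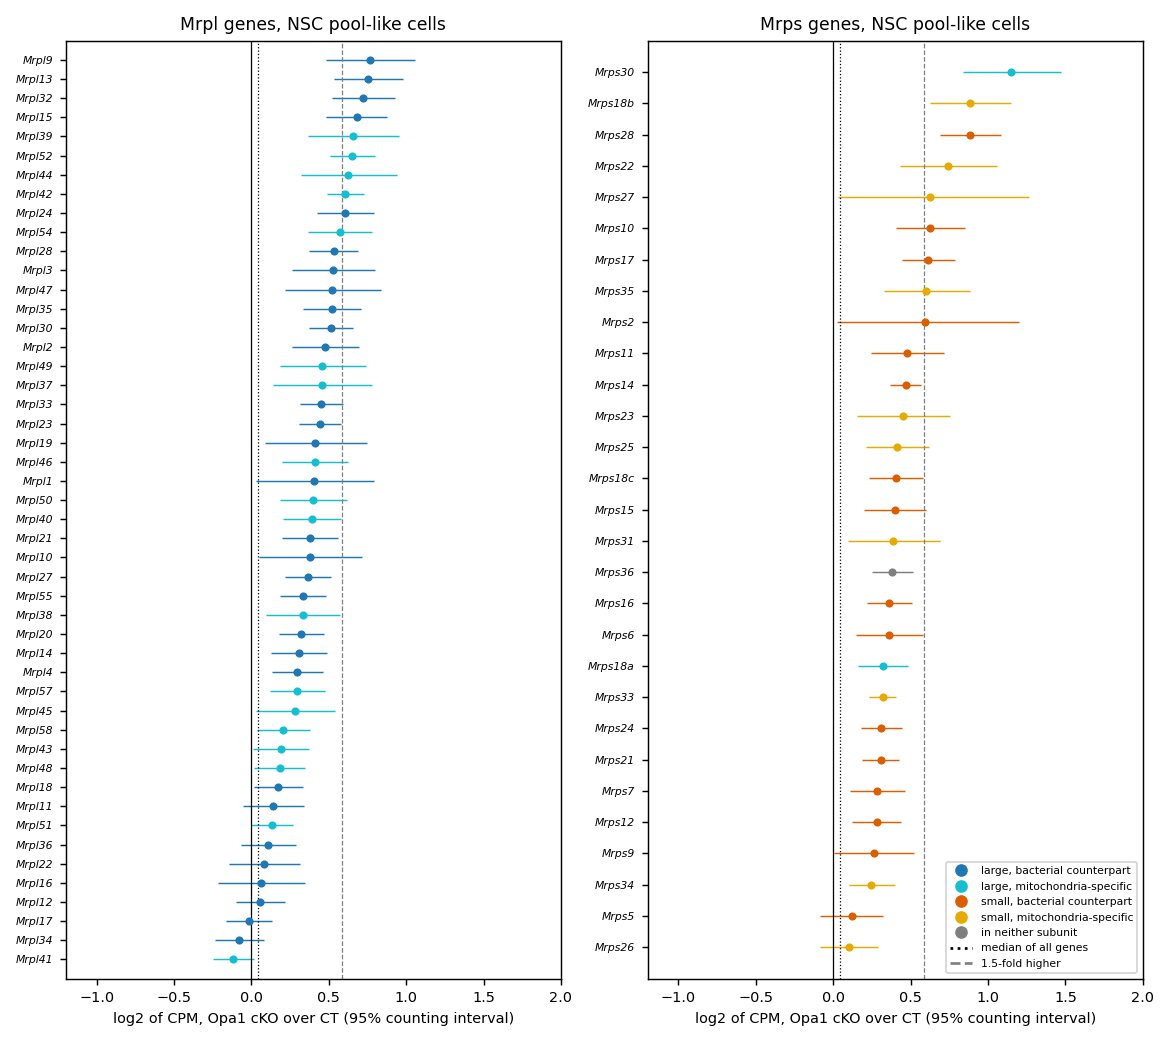
Each point is 1 gene, plotted by its log2 ratio of CPM, Opa1 cKO over CT, in NSC pool-like cells, with Mrpl genes in the left panel and Mrps genes in the right, and bars give the 95% counting interval. Colors mark the lists by role, the dotted line is the median of all genes (0.04) and the dashed line 1.5-fold. All 29 Mrps genes and 45 of 48 Mrpl genes lie to the right of 0, with Mrps30 (1.15) farthest out.

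Among the proteins with bacterial counterparts in the large subunit, 5 of 30 members were 1.5-fold or more higher, a share near the 13% of all genes, 0 were lower (11.4% of all genes), and the median log2 ratio was 0.39. Mrpl9 went from 33.6 CPM in CT (28.0 to 40.0) to 57.2 CPM in Opa1 cKO (52.2 to 62.5), a log2 ratio of 0.77 (0.48 to 1.06). Mrpl13 went from 55.3 to 93.2 CPM, 0.75 (0.53 to 0.98). Mrpl32, whose precursor is matured by the m-AAA protease of the inner membrane before it joins the ribosome, went from 65.9 to 109 CPM, 0.72 (0.52 to 0.93). All 3 were higher in Opa1 cKO by well over their counting error. Mrpl15 had 71.7 CPM in CT, against 115 in Opa1 cKO, 0.68 (0.48 to 0.88). At the other end of this list, Mrpl34 had 132 and 125 CPM, -0.08 (-0.23 to 0.08), and Mrpl17 had 145 and 143 CPM, -0.02 (-0.17 to 0.13). Mrpl16 had 39.7 and 41.5 CPM, 0.06 (-0.22 to 0.35). Mrpl36 had 95 and 103 CPM, 0.11 (-0.07 to 0.29). Intervals of these last 4 included 0, so no difference in either direction was detectable at this depth.

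The stalk and the exit tunnel are both parts of the large subunit. The stalk recruits translation factors, and of its members, whose intervals overlapped, Mrpl10 stood at a log2 ratio of 0.38 (0.05 to 0.72), Mrpl11 at 0.14 (-0.05 to 0.34) and Mrpl12, which also binds the mitochondrial RNA polymerase, at 0.06 (-0.10 to 0.22). Around the tunnel through which the nascent chain leaves, Mrpl24 had 81.5 CPM in CT, against 124 in Opa1 cKO, 0.61 (0.42 to 0.80), and Mrpl44 had 29.6 and 45.7 CPM, 0.63 (0.32 to 0.94). Mrpl47 had 30.7 and 44.1 CPM, 0.52 (0.22 to 0.83), and Mrpl23 had 159 and 216 CPM, 0.44 (0.31 to 0.58). Mrpl45, which ties the ribosome to the inner membrane, had 46.1 and 56.1 CPM, 0.28 (0.03 to 0.54). Mrpl22, the last of the tunnel genes, stood at 58.5 and 62.0 CPM, 0.08 (-0.15 to 0.32).

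Of the large-subunit proteins specific to mitochondria, 5 of 20 were 1.5-fold or more higher (13% of all genes) and 0 were lower (11.4%), with a median log2 ratio of 0.40. Mrps30 had the highest ratio of all members. It went from 26.7 CPM in CT (101 UMIs, 21.8 to 32.5) to 59.3 CPM in Opa1 cKO (503 UMIs, 54.2 to 64.7), a log2 ratio of 1.15 (0.84 to 1.47) or 2.22-fold, and lies at chr13:118378381-118387252 on the minus strand (mm10). Mrpl39 had 32.8 and 51.7 CPM, 0.66 (0.37 to 0.96), and Mrpl52 had 136 and 214 CPM, 0.65 (0.51 to 0.80). Mrpl41 had the lowest ratio of all members, with 179 CPM in CT (678 UMIs, 166 to 193), against 166 in Opa1 cKO (1405 UMIs, 157 to 174), for a log2 ratio of -0.12 (-0.25 to 0.02), and lies at chr2:24974117-24975098 on the minus strand. Mrpl51 had 160 and 176 CPM, 0.13 (-0.00 to 0.27). Mrpl42 (0.61, 0.49 to 0.73), Mrpl41 and Mrpl51 had the most UMIs of the large subunit in CT, with 203, 179 and 160 CPM, and the 3 therefore spanned much of the range of ratios.

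In the small subunit, 4 of 16 members with bacterial counterparts and 4 of 10 mitochondria-specific members were 1.5-fold or more higher (13% of all genes), with median log2 ratios of 0.38 and 0.43, and 0 of either were lower (11.4%). Counts for the lists by role are not given here for the other settings named above, at which fewer members in all passed 1.5-fold. Mrps28 went from 69.3 CPM in CT (61.2 to 78.3) to 128 CPM in Opa1 cKO (120 to 136), 0.88 (0.69 to 1.08). Mrps18b, 1 of 3 paralogs of bacterial S18, went from 41.0 CPM (34.8 to 48.0) to 75.7 CPM (69.9 to 81.7), 0.88 (0.63 to 1.15). Its paralogs Mrps18c (95.6 and 127 CPM, 0.41, 0.23 to 0.58) and Mrps18a (115 and 144 CPM, 0.32, 0.16 to 0.48) were more abundant and had smaller ratios, and the intervals of Mrps18b and of each of the other 2 did not overlap. Mrps22 had 28.9 and 48.2 CPM, 0.74 (0.43 to 1.06). Mrps12, a protein of the decoding centre, had 118 and 143 CPM, 0.28 (0.12 to 0.44), and Mrps6 had 63.3 and 81.3 CPM, 0.36 (0.15 to 0.58). Mrps26 (86.8 and 93.0 CPM, 0.10, -0.09 to 0.29) and Mrps5 (75.7 and 82.1 CPM, 0.12, -0.08 to 0.32) had the lowest ratios of the Mrps genes. The most abundant were Mrps33, with 390 CPM in CT (370 to 411), against 487 in Opa1 cKO (472 to 502), Mrps14 with 278 and 384 CPM, and Mrps21 with 205 and 254 CPM. Their log2 ratios were 0.32 (0.23 to 0.41), 0.47 (0.37 to 0.57) and 0.31 (0.19 to 0.43). Mrps36, the dehydrogenase component, had 170 and 221 CPM, 0.38 (0.25 to 0.51). In this assay reads come from the 3′ end, so UMIs do not scale with transcript length, but capture still differs between genes, and the order of levels is an order of UMIs.

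Exons of 4 members, Mrps6, Mrps24, Mrps34 and Mrpl53, overlap another counted gene on the same strand in GENCODE M21, and their values are uncertain to that extent.

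The Opa1 cKO cells of the NSC pool-like class were next split by the share of a cell's UMIs that came from the 13 mt- mRNAs, a low share marking the cells in which transcripts of the mitochondrial genome took up least of the total. Under 1% there were 1574 cells, at 1% or more 1008, and 3 CT cells fell under 1%. A share is a continuous measure, and 197 Opa1 cKO cells lay between 0.8% and 1.2%. Of the cells under 1%, 1573 belonged to the stress-led cluster, as did 217 of those at 1% or more. Both groups came from the same library and had medians of 2961 (under 1%) and 2954 UMIs per cell, while the median number of genes per cell was 1590.5 and 1427. Opa1 stood at 10.5 CPM (34 UMIs, 7.26 to 14.6) at 1% or more, against 18.5 in CT. Under 1% it stood at 6.68 CPM (35 UMIs, 4.65 to 9.3), a log2 ratio between the 2 groups of -0.65 (-1.37 to 0.07). Whether either group holds cells without deletion was not tested.

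Mitoribosome mRNA was higher in the cells with the least mt- mRNA. Nearly all of these cells were also in the stress-led cluster, and whether the difference follows the share or the cluster was not tested. The Mrpl sum was 4716 CPM (4642 to 4792) at 1% or more and 5836 CPM (5771 to 5902) under 1%, a log2 ratio of 0.31 (0.28 to 0.34). The Mrps sum was 3302 CPM (3240 to 3366) and 3960 CPM (3906 to 4014), 0.26 (0.23 to 0.30). In the same direction, 71 of 77 members had a ratio above 0, compared with 68.2% of all genes, and the median log2 ratio was 0.34 against 0.18 over all genes. For 11 members the level was 1.5-fold or more higher under 1%, compared with 14.1% of all genes, and for 0 it was that much lower, compared with 3.95%. The share of members past 1.5-fold was thus near that of all genes, and the 11 ranged from 4 to 17 over the alternatives tried. The mt- mRNAs, by which the cells were split, took up 49545 CPM at 1% or more and 4448 CPM under 1%, and this alone lifts every other gene under 1%. Per 1000000 UMIs other than mt- mRNAs, the ratios of the sums were 0.24 (0.21 to 0.27) for Mrpl and 0.20 (0.16 to 0.23) for Mrps.

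Over finer bins of the share, both sums were lower in each bin than in the one before. From under 0.5% through 0.5 to 1%, 1 to 2%, 2 to 4% and 4% or more, the Mrpl sum was 5895, 5730, 5335, 5075 and 4466 CPM, and the Mrps sum was 4000, 3888, 3748, 3292 and 3207 CPM. The bins held 992, 582, 164, 205 and 639 cells. Intervals of several neighbouring bins overlapped, such as the first (5813 to 5977) and second (5622 to 5839) for Mrpl. For Mrps, neighbours were apart only between 1 to 2% (3574 to 3927) and 2 to 4%. The first and last bins were apart for both, with 5813 to 5977 against 4376 to 4557 and 3932 to 4068 against 3131 to 3284. The course of all genes over these bins was not computed. Per 1000000 UMIs other than mt- mRNAs, the Mrpl sum kept this order (5914, 5769, 5407, 5239 and 4768), while the last 2 bins of the Mrps sum (4012, 3915, 3798, 3399 and 3424) were level. CT cells could be set beside them in the upper bins alone. At 2 to 4% (307 CT cells) CT had 4501 CPM of Mrpl mRNA (4350 to 4656) against 5075 (4905 to 5249) in Opa1 cKO, and 2926 CPM of Mrps mRNA (2804 to 3051) against 3292 (3156 to 3433). At 4% or more (1057 CT cells) the values were 4162 (4089 to 4235) against 4466 (4376 to 4557) and 2786 (2727 to 2847) against 3207 (3131 to 3284). In both bins and for both subunits Opa1 cKO was higher, without overlap of the intervals. Shares were matched only by the range of the bin, and the ratio of all genes within these bins was not computed.

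**Figure D2:**
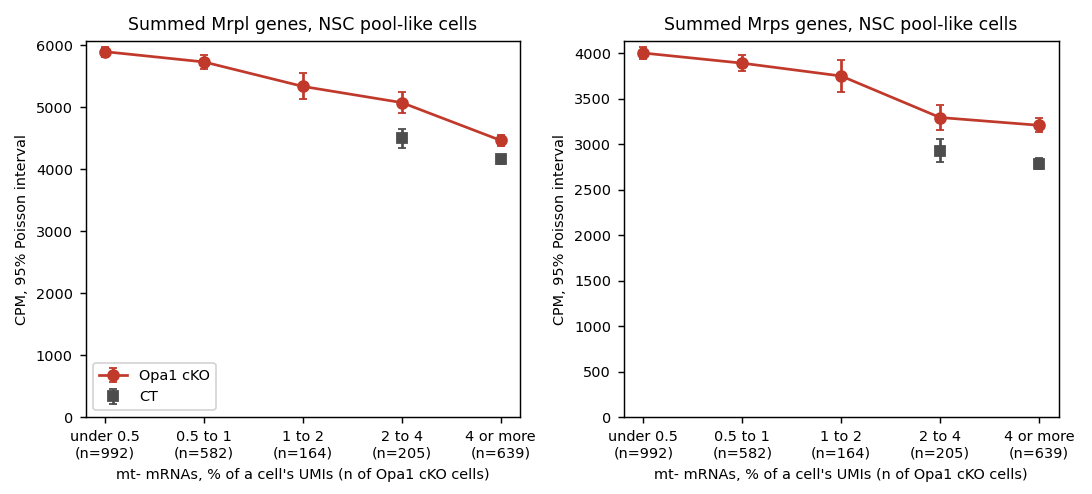
Summed CPM of the Mrpl (left) and Mrps genes (right) in NSC pool-like cells, by the percent of a cell's UMIs from mt- mRNAs, with 95% Poisson intervals. The line of Opa1 cKO cells runs from 5895 down to 4466 CPM for Mrpl and from 4000 down to 3207 CPM for Mrps. The 2 CT bins with 20 or more cells lie below the Opa1 cKO points of the same bins.

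Set beside CT, both Opa1 cKO groups were higher, and these 2 comparisons share the CT cells. The group at 1% or more stood at log2 ratios of 0.16 (0.12 to 0.19) for the Mrpl and 0.23 (0.19 to 0.27) for the Mrps sum, with 2 of 77 members 1.5-fold or more higher (3.24% of all genes), 63 above 0 (44.4%) and a median of 0.18 (all genes -0.06). The group under 1% stood at 0.46 (0.44 to 0.49) and 0.49 (0.46 to 0.53), with 29 members 1.5-fold or more higher (19.9% of all genes), 74 above 0 (56.6%) and a median of 0.53 (all genes 0.10).

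Single members took different courses over the 3 groups. Mrps18b had 41.0 CPM in CT, 44.1 CPM (37.2 to 51.9) in Opa1 cKO cells at 1% or more and 95.2 CPM (87.0 to 104) in those under 1%, a log2 ratio between the last 2 of 1.11 (0.84 to 1.39). Mrpl47, a protein at the tunnel exit, had 30.7, 25.6 and 55.5 CPM, 1.12 (0.76 to 1.49), the highest of all members. Mrps6 had 63.3, 56.7 and 96.5 CPM, 0.77 (0.52 to 1.02). For these 3 genes CT and the cells at 1% or more overlapped, and the cells under 1% stood apart. Mrps30 had 26.7, 41.0 and 70.6 CPM, with 0.78 (0.49 to 1.08) between the last 2, and Mrps28 had 69.3, 86.6 and 153 CPM, 0.82 (0.63 to 1.02). Mrps30 stepped up at both places, without overlap of its intervals.

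The abundant Mrps genes were higher in both Opa1 cKO groups, with little between these. Mrps14 had 278 CPM in CT (261 to 295), 368 CPM (348 to 390) at 1% or more and 394 (377 to 412) under 1%, 0.10 (-0.01 to 0.20). Mrps33 had 390, 463 and 501 CPM, 0.12 (0.02 to 0.21), and Mrps21 had 205, 259 and 250 CPM, -0.05 (-0.18 to 0.08). In these 3 genes the larger step lay between CT and the Opa1 cKO cells with a mt- share of 1% or more. Among members with at least 50 UMIs, the lowest ratios of under 1% over 1% or more were those of Mrpl41 with 179, 179 and 157 CPM, -0.19 (-0.35 to -0.04), Mrpl36 with 95, 111 and 97.3 CPM, -0.19 (-0.39 to 0.01), and Mrpl17 with 145, 153 and 136 CPM, -0.17 (-0.34 to -0.00). Mrps2 had 8.73, 14.2 and 12.6 CPM, -0.17 (-0.74 to 0.40), too few UMIs for a direction. Among the 77 members with at least 50 UMIs, Mrpl41 was thus lowest in both comparisons.

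**Figure D3:**
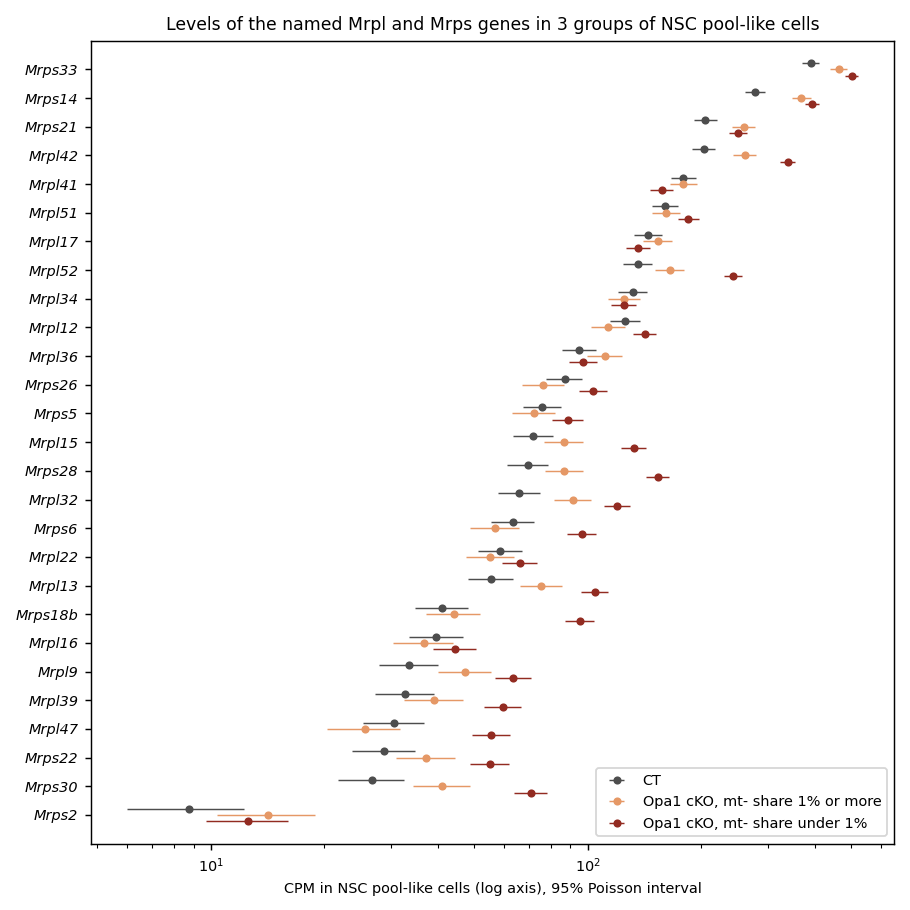
CPM on a log axis for the named members in NSC pool-like cells of CT, of Opa1 cKO at a mt- share of 1% or more, and of Opa1 cKO under 1%, with 95% Poisson intervals. Mrps18b, Mrpl47 and Mrps6 stand apart in the cells under 1% alone, Mrps14 and Mrps33 are higher in both Opa1 cKO groups, and Mrpl41 goes from 179 CPM in CT to 157 CPM under 1%.

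Markers of other cell types were present at low levels that differed between the NSC pool-like groups. Those of activated NSCs stood at 844 CPM in CT, 935 CPM at 1% or more and 916 CPM under 1%, and those of ependymal cells at 142, 172 and 76.5 CPM. The 14 progenitor and neuron markers summed to 231 to 262 CPM, the 9 mural markers to 109 to 156 CPM and the 7 endothelial markers to 32 to 46.1 CPM. The summed level of the 7 oligodendrocyte markers was 369 CPM in CT and 401 to 443 CPM in the Opa1 cKO groups. The 7 microglia markers summed to 67.2 CPM in CT and 121 to 132 CPM in Opa1 cKO, and the 5 oligodendrocyte precursor markers, of which 2 were at 0 in every group, to 91.8 CPM in CT, 167 CPM at 1% or more and 358 CPM under 1%. The 14 markers of the NSC pool summed to 75571 CPM in CT, 79201 CPM at 1% or more and 60753 CPM under 1%. The part of these differences in the values above was not tested.

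In the other classes the sums of both subunits were also higher in Opa1 cKO. Progenitor and neuron-like cells (139 CT, 169 Opa1 cKO) had 4580 CPM of Mrpl mRNA in CT, against 5584 in Opa1 cKO, 0.29 (0.21 to 0.37), and 2526 and 3228 CPM of Mrps mRNA, 0.35 (0.25 to 0.46). Activated NSC-like cells (11 CT, 412 Opa1 cKO) had 4782 CPM (4028 to 5637) and 6057 CPM (5925 to 6192) of Mrpl mRNA, 0.34 (0.10 to 0.59), and 2930 and 3968 CPM of Mrps mRNA, 0.44 (0.13 to 0.76). With 11 cells, the CT value of this class is a weak reference. Its leading genes included 6330403K07Rik and Ifit3b, which in a finer clustering led an unnamed cluster of 31 Opa1 cKO cells. In the clustering without the YFP filter, its marker Frzb was among the leading genes of a microglia-like cluster. The class may therefore be mixed, which was not tested. Mural-like cells stood at 0.28 (0.15 to 0.41) and 0.38 (0.21 to 0.55), endothelial-like cells at 0.23 (0.11 to 0.35) and 0.29 (0.13 to 0.45), and ependymal-like cells at 0.24 (0.11 to 0.38) and 0.25 (0.07 to 0.43). Taking both subunits together, the ratio ran from 0.24 (0.13 to 0.35) in ependymal-like to 0.38 (0.19 to 0.57) in activated NSC-like cells, with 0.37 in NSC pool-like cells. The intervals of classes next to each other in this order overlapped. Those of NSC pool-like (0.352 to 0.392) and endothelial-like cells (0.157 to 0.345) did not. These ratios are not relative to all genes, whose median log2 ratio (at least 50 UMIs) also differed between classes. It was 0.22 in activated NSC-like, 0.10 in ependymal-like, 0.04 in NSC pool-like and 0.03 in progenitor and neuron-like cells. In ependymal-like cells the mt- mRNAs went from 63204 to 11148 CPM, which alone lifts every other gene. Over the alternatives, the ependymal-like ratio went down to 0.16 for Mrpl and 0.13 for Mrps.

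The mt- mRNAs did not follow the same order. Their summed log2 ratio was -2.50 for ependymal-like cells, -1.86 for activated NSC-like cells, -1.45 and -1.44 for the progenitor and NSC pool-like classes, -0.79 for mural-like cells, -0.50 for endothelial-like cells and -0.05 for oligodendrocyte-like cells, while the mitoribosome sums of all 7 classes lay within 0.24 to 0.38. Opa1 itself had 9 UMIs or fewer per library in each class outside the NSC pool. It stood at -2.55 (9 and 2 UMIs, -5.80 to -0.27) in progenitor and neuron-like and at -3.53 (4 and 3 UMIs, -6.30 to -0.97) in ependymal-like cells, while its intervals in the other 4 classes included 0.

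**Figure D4:**
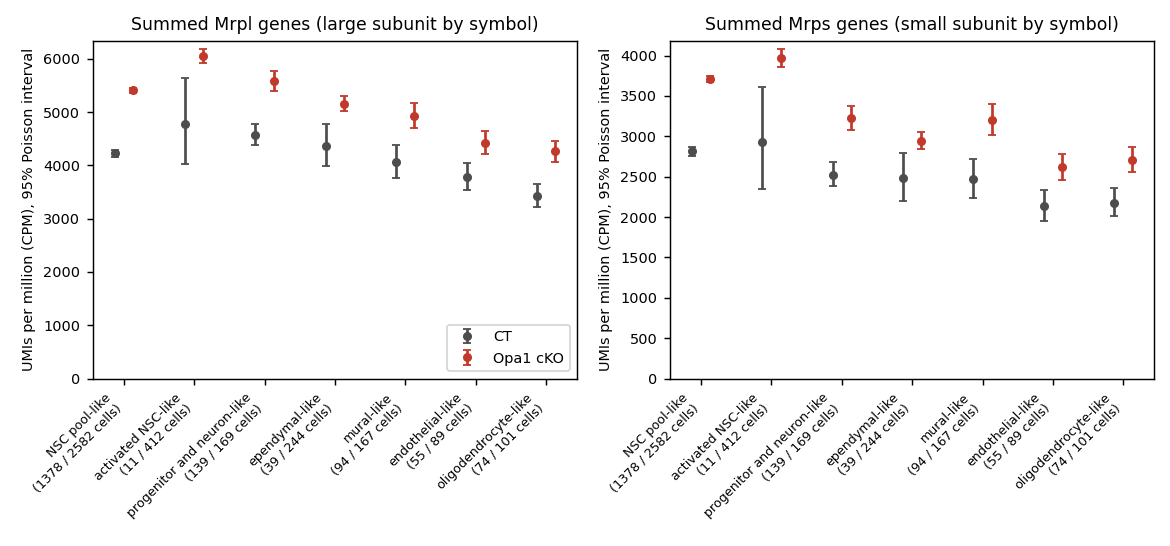
Summed CPM of the Mrpl (left) and Mrps genes (right) by class, with CT in grey, Opa1 cKO in red, cell numbers in brackets (CT / Opa1 cKO) and 95% Poisson intervals. The red point lies above the grey one in each class and panel, from 0.23 (endothelial-like, Mrpl) to 0.44 (activated NSC-like, Mrps) on the log2 scale.

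Within each library, levels also differed between classes. In CT, progenitor and neuron-like cells had 4580 CPM of Mrpl mRNA (4384 to 4782), above NSC pool-like cells (4233) without overlap, and oligodendrocyte-like cells had the least, 3424 CPM (3214 to 3645), next to endothelial-like cells (3779, 3533 to 4037), with which they overlapped. The Mrps sum was highest in activated NSC-like (2930, 2347 to 3614) and NSC pool-like cells (2812), whose intervals overlapped, and lowest in endothelial-like (2138, 1955 to 2335) and oligodendrocyte-like cells (2177, 2010 to 2355), which overlapped too. In Opa1 cKO, activated NSC-like cells had the most of both, 6057 and 3968 CPM. Mrpl genes gave 60.1% of the mitoribosome UMIs of the CT NSC pool-like class, 59.3% of those of its Opa1 cKO cells, and 59.3% to 64.4% over all classes and libraries. This balance differed between classes. For CT, the log2 ratio of Mrpl over Mrps UMIs was 0.59 (0.55 to 0.63) for the NSC pool-like class. For the progenitor and neuron-like class of CT, the same ratio was 0.86 (0.75 to 0.96), without overlap of the intervals.

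By single members, 54 of 64 progenitor and neuron-like members with at least 50 UMIs had a ratio above 0 (52.3% of all genes), and 18 were 1.5-fold or more higher (12.4%). In ependymal-like cells 43 of 59 members were above 0 (58% of all genes) and 18 past 1.5-fold higher (20.7%). Their median log2 ratio was 0.33, against 0.10 over all genes. Only 3 of them had 300 UMIs or more, with 1 above 0 (450 of 626 genes) and a median of -0.13 against 0.20. The mural-like class had 26 of 34 above 0 (58.9%) and 9 past 1.5-fold higher (17.5%). Of 37 members in endothelial-like cells, 29 were above 0 (53.6%) and 4 past 1.5-fold higher (10%), and of 40 in oligodendrocyte-like cells, 34 were above 0 (54.8%) and 10 past 1.5-fold higher (10.9%). At the minimum of 50 UMIs, the share of members above 0 exceeded that of all genes in each of these classes. In the endothelial-like class the share past 1.5-fold was close to that of all genes. Leaving out the activated class, 29 members had 50 UMIs in each of the other 6 classes, and 10 of these (Mrpl18, Mrpl23, Mrpl24, Mrpl42, Mrpl52, Mrpl58, Mrps7, Mrps16, Mrps18c and Mrps34) were above 0 in all 6. This share, 34.5%, was near the 28.3% of the 1341 genes with that many UMIs in each class. Mrpl58 is a peptidyl-tRNA hydrolase that frees stalled chains. Mrps33 was above 0 in 5 of them by more than its interval. Beside 0.32 in NSC pool-like cells, its log2 ratio was 0.77 (0.47 to 1.08) for progenitor and neuron-like cells (291 and 498 CPM), 0.74 (0.09 to 1.43) for mural-like cells, 0.70 (0.14 to 1.30) for endothelial-like cells and 0.69 (0.31 to 1.09) for oligodendrocyte-like cells. In ependymal-like cells, where it was most abundant in CT, it had 466 and 425 CPM, -0.13 (-0.55 to 0.32).

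In progenitor and neuron-like cells the highest ratios were those of Mrpl44 (13 and 43 UMIs, 1.35, 0.43 to 2.37), Mrpl3 (15 and 43 UMIs, 1.14, 0.27 to 2.1) and Mrps9 (17 and 45 UMIs, 1.03, 0.19 to 1.93). The lowest were those of Mrpl9 (29 and 28 UMIs, -0.43, -1.23 to 0.37), Mrpl28 (86 and 87 UMIs, -0.36, -0.81 to 0.09) and Mrps23 (27 and 28 UMIs, -0.32, -1.14 to 0.49). Mrpl9 was thus among the highest members in NSC pool-like cells and the lowest here, with few UMIs. Mrps30, highest in NSC pool-like cells, stood at 0.72 (-0.04 to 1.52) here. In activated NSC-like cells the 3 highest, Mrps18c, Mrps18a and Mrpl57, each had 1 UMI in CT, and their log2 ratios of 2.16 (-0.34 to 7.47), 2.12 (-0.38 to 7.43) and 2.07 (-0.42 to 7.38) carry no direction. The 3 lowest were Mrps35 (4 and 65 UMIs, -1.44, -2.86 to 0.48), Mrps7 (9 and 147 UMIs, -1.43, -2.39 to -0.27) and Mrpl3 (4 and 86 UMIs, -1.03, -2.44 to 0.88). Of members with at least 50 UMIs in that class, 4 (Mrpl37, Mrpl38, Mrps22 and Mrps31) had none among the 11 CT cells.

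The rest of the mitochondrial translation apparatus was described by lists in the NSC pool-like class. All 5 mitoribosomal proteins with other symbols were higher in Opa1 cKO (53.4% of all genes). Of these, 2 were 1.5-fold or more higher (13% of all genes), and the median log2 ratio was 0.52. Ptcd3 had 14 and 27.0 CPM, 0.94 (0.51 to 1.40), and Dap3, a small-subunit GTP-binding protein first described in cell death, had 79.7 and 122 CPM, 0.62 (0.43 to 0.81). Among the translation factors, 4 of 13 were 1.5-fold or more higher (13% of all genes) and 0 lower (11.4%), with a median of 0.24. The elongation factors divided, with Tsfm at 40.5 and 68.0 CPM, 0.75 (0.49 to 1.01), and Gfm1 at 19.1 and 32.4 CPM, 0.77 (0.39 to 1.16), whereas Tufm, the partner of Tsfm, stood at 46.3 and 43.5 CPM, -0.09 (-0.35 to 0.18). The initiation factor Mtif3 was at 0.75 (0.31 to 1.21), and Mtfmt, which formylates the initiator tRNA, at -0.38 (-0.84 to 0.08).

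The list for assembly of the mitoribosome and modification of its rRNA also holds genes with other roles, such as Lrpprc, Slirp and Nsun3. Of its genes, 9 of 25 were 1.5-fold or more higher (13% of all genes) and 0 lower (11.4%), with a median of 0.45. Mterf3 had 19.6 and 32.5 CPM, 0.73 (0.36 to 1.12), Ngrn 34.1 and 56.3 CPM, 0.72 (0.44 to 1.01), and Rbfa, a small-subunit maturation factor, 43.7 and 65.9 CPM, 0.59 (0.34 to 0.85). Below 0 were 4 of the 25. Dhx30, an RNA helicase, had 110 and 101 CPM, -0.11 (-0.29 to 0.06), and Mpv17l2 had 215 and 197 CPM, -0.125 (-0.247 to -0.003). Within Opa1 cKO, under 1% over 1% or more, 24 of 25 genes of the assembly list were above 0 with a median of 0.42. Of the translation factors, 9 of 12 were above 0 with a median of 0.14. For all genes the values were 68.2% above 0 and a median of 0.18.

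Genes for cytosolic ribosomal proteins differed more than those for mitochondrial ones in NSC pool-like cells. Their sum was 30568 CPM in CT, against 45886 in Opa1 cKO, for a log2 ratio of 0.59 (0.58 to 0.60), and 44 of 82 were 1.5-fold or more higher (13% of all genes) and 1 lower (11.4%), with a median of 0.62. Within Opa1 cKO, the sum was 35017 CPM at 1% or more and 52610 CPM under 1%, again 0.59 (0.58 to 0.60). In oligodendrocyte-like cells it stood at 0.12 (0.09 to 0.16) and in activated NSC-like cells at 0.06 (0.00 to 0.12), below the mitoribosome values of these classes (0.32 and 0.38), as in endothelial-like cells (0.13 against 0.25). It was above them in mural-like cells (0.54 against 0.32), progenitor and neuron-like cells (0.43 against 0.31) and ependymal-like cells (0.29 against 0.24). The intervals overlapped in endothelial-like cells (0.107 to 0.161 against 0.157 to 0.345) and ependymal-like cells (0.259 to 0.330 against 0.135 to 0.353). In the other classes they did not.

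**Figure D5:**
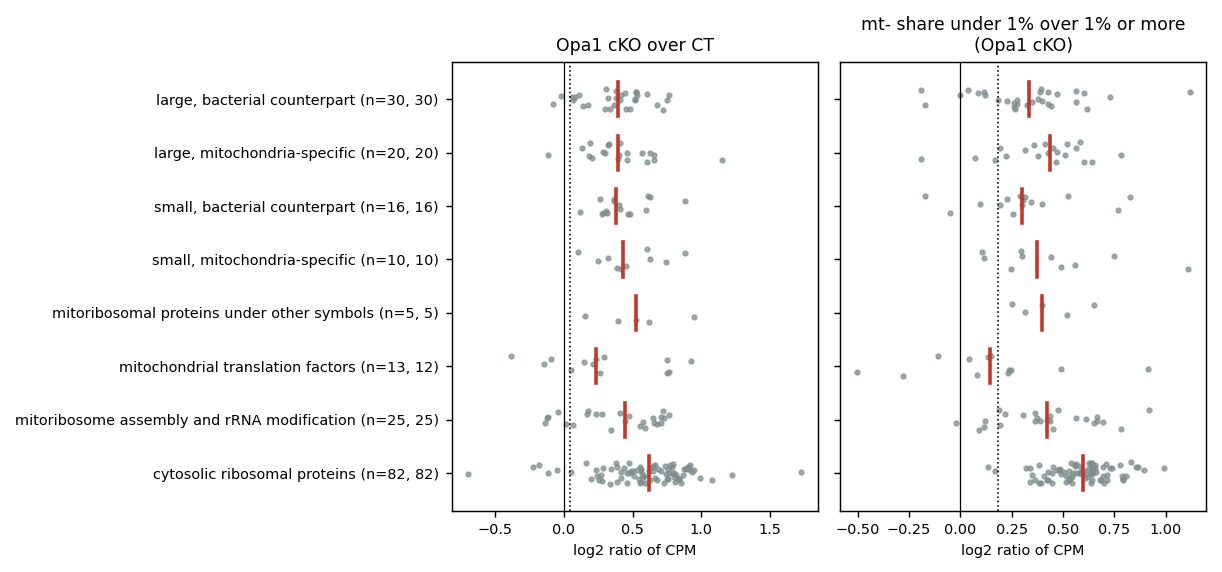
Each grey point is 1 gene with at least 50 UMIs, plotted by its log2 ratio of CPM in NSC pool-like cells, for Opa1 cKO over CT (left) and, within Opa1 cKO, for a mt- share under 1% over 1% or more (right). Red bars are medians of each list, the dotted line is the median of all genes (0.04 and 0.18), and numbers of genes in both panels are given beside the names. The 4 mitoribosome lists have medians of 0.38 to 0.43 on the left, between the translation factors (0.24) and the cytosolic ribosomal proteins (0.62).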

How the data were processed

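YFP+ hippocampal cells of 2 libraries were analysed, 1 per genotype. The authors aligned the reads to mm10 with Cell Ranger (version 2.1.1 in the submitters' processing notes, 3.1.0 in the headers of the matrices) and deposited UMI counts per gene and barcode, which are whole numbers without normalization. The annotation used for counting is not given in the sources used here. Counts of identifiers sharing a symbol were summed. After the study's methods, cells were kept with over 600 and under 7500 genes, under 20% mitochondrial UMIs and 1 or more YFP UMIs, then normalized with sctransform 0.4.2 and clustered in Seurat 5.3.0 (8 dimensions, resolution 0.2). No doublet caller was run. The classes were rebuilt from markers and may differ from the study's: a cluster took the type with most markers among its 50 leading genes if 3 or more markers had a log2 fold over 1, with 10 CPM added, and clusters left unnamed were read again against those named outside the NSC pool and activated classes. That second reading, set after the clusters were seen, named the stress-led cluster.

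UMIs were summed per library and class in python 3.11.15 (numpy 2.4.6, scipy 1.17.1). Exact 95% intervals were taken from the Poisson distribution for CPM and, for a log2 ratio, from the binomial share of 1 count in the sum of both; the code was tested on simulated data. No p-value was computed. Background shares are over all genes with 50 or more UMIs in the cells compared, or 300 or more where stated. Named are the 10 highest and 10 lowest members in NSC pool-like cells, the 5 highest and lowest by mt- share, the 3 highest and lowest in the activated and progenitor classes, the 3 most abundant of each subunit, and members with set roles. Other genes named from the lists were picked after their values were seen. Alternatives changed the denominator, centring, depth, limit of the mt- share and clustering. The members and lists were chosen with earlier results of these data known. Coordinates are from GENCODE M21.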

Additional observations from a re-analysis of the deposited data

How the results depend on the processing

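The 13 alternatives gave 192 values, of which 171 stayed within the counting interval, 0.1 (medians) or 1.5 times (counts) of the value reported, and none changed direction. Per 1000000 UMIs other than mt- mRNAs, the Opa1 cKO over CT ratio in NSC pool-like cells was 0.30 (Mrpl) and 0.34 (Mrps). In that setting 10 members were 1.5-fold or more higher in place of 18 (13% of members, 10.8% of all genes). Relative to the median of all genes that number was also 10 (11.3% of all genes). For under 1% over 1% or more, the ratio was 0.24 and 0.20 per 1000000 other UMIs, 0.23 and 0.21 in classes clustered without mt-, Mrp and stress genes, and 0.21 and 0.19 with the limit at 0.5%. With classes from the clustering of lineage cells the Mrpl ratio was 0.28. The median was 0.16 relative to all genes and 0.23 at the 0.5% limit. The number 1.5-fold or more higher, 11 as reported, was 7 per 1000000 other UMIs (9.09% of members against 10.7% of all genes). Relative to the median of all genes it was 4 (5.19% against 6.24%). It was 17 with cells thinned to 1500 UMIs, 6 without those genes in the clustering, 5 with lineage classes, 4 at 0.5% and 17 at 2%. For the thinning, clustering and limit settings the share of all genes is not given here, so those counts carry no comparison with it. The Mrps ratio of mural-like cells was 0.21 (-0.05 to 0.48) when thinned. The causes were not tested, beyond the change of denominator or limit itself. In the clusterings without the YFP filter and without those genes no activated NSC-like cluster formed, and the clustering of lineage cells, for the activated and progenitor classes, was added after seeing the data. No paired analysis was possible because each genotype has 1 library. Depth limits single members most in classes with few cells, and no value here covers the spread between animals.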
